A study of Mus musculus with 48 samples.

Results

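Dihydrotestosterone (DHT) and estradiol were each applied for 4 h at 200 nM to primary mouse astrocytes, and the abundance of mRNA was read on Illumina Mouse WG-6 v2 bead arrays. The arrays described here were those whose labels name either steroid or the vehicle in astrocytes. They were 12 of the 48 arrays of the series, 4 with DHT, 4 with estradiol and 4 with vehicle, and all 46174 probes were used. All cells were C57Bl/6J astrocytes labelled as striatum, and no allele or transgene was involved. According to the study's methods the cells were taken from pups by magnetic selection for the glutamate transporter GLAST, grown in medium with serum, and kept in unsupplemented Neurobasal medium on the last day. The labels name the androgen as dihydrotestosterone, but the methods also list testosterone among the stock solutions, so which of the 2 androgens these arrays received rests on the labels. The vehicle was a trace of ethanol in the same medium. The 4 arrays with 200 nM progesterone in astrocytes served as the nearest comparison, and those with aldosterone or dexamethasone entered the fit for the spread between arrays.

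DHT is the strongest natural ligand of the androgen receptor, and estradiol binds the estrogen receptors alpha and beta and the membrane receptor Gper1. The bound nuclear receptors enter or stay in the nucleus, pair up on short palindromic DNA elements and recruit coregulators to nearby genes. Estrogen and androgen signalling in astrocytes is known for its links to neuroprotection, glutamate uptake and the control of glial inflammation. DHT carries a saturated A ring with a ketone and estradiol an aromatic A ring with a phenol, while both have a hydroxyl group on the D ring. Progesterone, aldosterone and dexamethasone can act through the glucocorticoid receptor, whose target genes in astrocytes include Per1, Tsc22d3 and Fkbp5.

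Expression values were normalized log2 intensities, on which a difference of 1 is a 2-fold change, and they ran between 6.02 and 16.65 on the astrocyte arrays. The mean lay under 7.5, close to the floor, for 63.0% of the probes. Astrocyte markers had mean levels of 12.34 to 12.43 with DHT, 12.36 to 12.48 with estradiol and 12.43 to 12.51 with vehicle, led by the glutamate transporter Slc1a3 at 16.45. Microglia markers were also high, with list means of 11.79 to 11.94, 11.86 to 11.93 and 11.78 to 11.88 with DHT, estradiol and vehicle, and the leukocyte gene Laptm5 averaged 16.23. Of the 16 neuron markers, 8 lay under 7.5 on all 24 astrocyte arrays. In such bulk samples, fewer cells of a type and less RNA per cell cannot be told apart. Arrays with the same replicate number deviated together, and the number was used as a block. In a second table of non-normalized intensities, 1 of the 48 columns was closest in value to the array of its own label, and the labels of the normalized table were used throughout. With the columns of that table assigned by value and not by their labels, each treatment fell at 1 position on every chip, and position and treatment could then not be told apart. The labels do not say whether replicates were separate cultures, so the p-values measure only the spread between these arrays.

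DHT changed 2 of the 46174 probes at a false discovery rate (FDR) of 1% (0.00433% of those tested), a rise of Gpnmb and a fall of Gpm6b. Gpnmb encodes a transmembrane glycoprotein of phagocytes, including microglia. The Gpnmb probe read 10.71, 10.70, 10.85 and 10.81 with DHT, 10.51, 10.10, 10.31 and 10.47 with estradiol, and 9.88, 10.09, 10.40 and 10.03 with vehicle. All DHT arrays lay above all vehicle and all estradiol arrays, while estradiol and vehicle overlapped. The rise with DHT was 0.67 ± 0.11 log2 units (SE, n = 4 each, limma adjusted p = 0.00854). With estradiol the same probe differed from vehicle by 0.25 (adjusted p = 0.555). Gpm6b encodes a proteolipid-family membrane glycoprotein of neurons and glia. Its probe read 8.52, 8.22, 8.22 and 8.45 with DHT, 8.45, 8.76, 8.55 and 8.48 with estradiol, and 8.97, 8.96, 8.93 and 8.92 with vehicle. Every steroid-treated array lay below every vehicle array. The fall was 0.59 log2 units with DHT (-0.59, limma adjusted p = 0.00854), and the difference with estradiol was -0.39 (adjusted p = 0.316).

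Both calls rested on 1 probe of a gene that has several. The brightest Gpnmb probe, with a mean of 14.99, differed by 0.15 with DHT, and the other two by 0.12 and 0.06. The other probes of Gpm6b differed by -0.07 and 0.14. Without the replicate block the adjusted p was 0.166 for Gpnmb and 0.0277 for Gpm6b, and neither probe passed 1%. Gpnmb kept its call without vehicle array 3 but lost it without any other of the 8 arrays, and Gpm6b kept it without DHT array 1 only.

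The 250 bases before the RefSeq start of both genes (GRCm38.p6) are shown because these were the calls at 1%. The letters AGAACA, a half-site of the element shared by the androgen and glucocorticoid receptors, were searched on both strands and are given in capitals. They occurred once for Gpnmb, 129 bases before the start, and had no match for Gpm6b. Gpnmb lies at chr6:49036268-49036517, plus strand, and Gpm6b at chrX:166238693-166238942, plus strand.
Gpnmb: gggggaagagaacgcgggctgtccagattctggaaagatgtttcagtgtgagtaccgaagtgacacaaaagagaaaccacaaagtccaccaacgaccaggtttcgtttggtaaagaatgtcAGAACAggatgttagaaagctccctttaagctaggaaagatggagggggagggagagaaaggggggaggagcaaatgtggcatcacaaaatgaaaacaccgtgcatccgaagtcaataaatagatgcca
Gpm6b: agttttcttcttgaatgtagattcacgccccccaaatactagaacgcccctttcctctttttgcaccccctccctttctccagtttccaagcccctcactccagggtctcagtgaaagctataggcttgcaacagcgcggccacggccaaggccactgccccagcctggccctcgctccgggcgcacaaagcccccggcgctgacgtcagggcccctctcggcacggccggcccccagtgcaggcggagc
AGAACA was present before the start of 18.2% of the 27025 genes with such a window. Of the 20 genes named for DHT, 14 had a window and 5 of these held it (35.7%), namely Bckdhb, Dock9, Gpnmb, Ifi207 and Optc. The full palindrome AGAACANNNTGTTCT was found in none of them and in 0.0111% of all genes. The 20 genes were chosen by the DHT contrast, and a match describes the letters only.

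**Figure D1:**
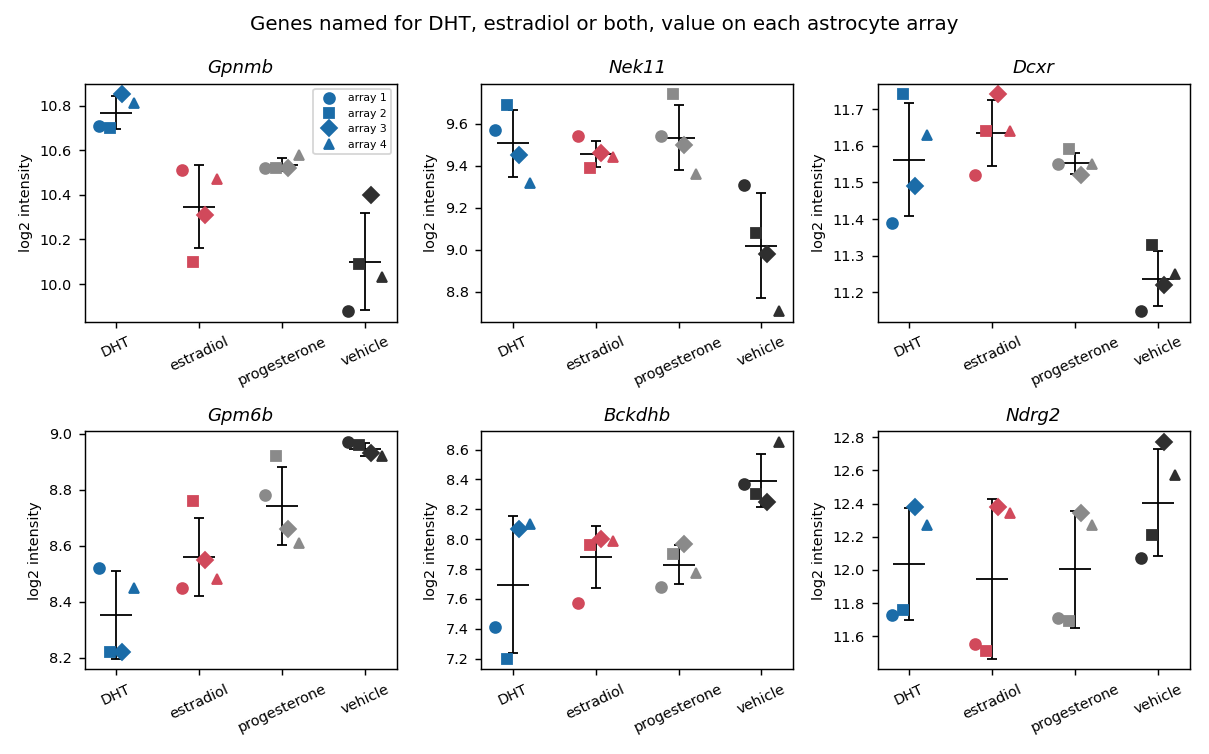
Normalized log2 intensity of 6 named probes on each array, with DHT, estradiol, progesterone and vehicle from left to right, array number by marker shape, and mean ± SD as bars (n = 4 each). The 4 DHT arrays of Gpnmb sit between 10.70 and 10.85, above the highest vehicle array at 10.40, and the DHT and estradiol arrays of Gpm6b sit below the vehicle arrays.

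At the less strict FDR of 20%, 237 probes differed with DHT, 129 higher and 108 lower (0.513% of those tested). The 10 genes with the smallest p on the higher side began with Gpnmb, and apart from it none passed 1%. They included Ifi207, a member of the PYHIN family, Tapbp, the tapasin that loads peptides on MHC class I, Psmb8, a proteasome subunit, and Tor3a, a torsin ATPase. Ifi207 read between 9.74 and 10.54 with DHT and between 9.53 and 10.06 with estradiol, and 9.81, 9.46, 9.44 and 9.43 with vehicle. It overlapped only through the highest vehicle array, and differed by 0.57 with DHT (limma adjusted p = 0.0233). Tapbp differed by 0.46 (adjusted p = 0.0561), Tor3a by 0.59 and Psmb8 by 0.47 (both 0.103). The brighter Psmb8 probe differed by 0.19 (adjusted p = 0.514).

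The other genes on the higher side were Nek11, a NIMA-related kinase of the DNA damage checkpoint, Csnk1d, the casein kinase that phosphorylates period proteins, Optc, Car13, a carbonic anhydrase, and Adgre1, which encodes a surface protein of macrophages. Csnk1d read 8.79, 8.94, 9.08 and 8.96 with DHT, 8.69, 8.46, 8.60 and 8.83 with estradiol, and 8.35, 8.45, 8.50 and 8.46 with vehicle, a difference of 0.50 with DHT (limma adjusted p = 0.0278). All DHT arrays lay above all vehicle arrays, but the brightest Csnk1d probe differed by 0.13. Adgre1 differed by 0.50 (adjusted p = 0.134) on a dim probe, while its brighter probes differed by 0.06 and -0.11.

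On the lower side, Bckdhb, which encodes a subunit of the branched-chain ketoacid dehydrogenase, had the largest difference of the 10 named genes. It read 7.41, 7.20, 8.07 and 8.10 with DHT, 7.57, 7.96, 8.0 and 7.99 with estradiol, and 8.37, 8.30, 8.25 and 8.65 with vehicle. All 8 steroid-treated arrays lay below the vehicle arrays, with a difference of -0.70 for DHT (limma adjusted p = 0.0233) and -0.51 for estradiol (0.316). Pkp4, a plakophilin of cell junctions, differed by -0.53 with DHT (adjusted p = 0.0334), and its 4 arrays lay below those with vehicle. Neat1, the long noncoding RNA that builds paraspeckles, differed by -0.52 (0.0842), Dock9, an exchange factor for Cdc42, by -0.59 (0.103), and Hook1, an adaptor of dynein, by -0.45 (0.0855). Calm2, Churc1, Cdk20 and the peroxisomal transporter Abcd3 differed by -0.48, -0.47, -0.55 and -0.51. All 4 DHT arrays lay above or below all 4 vehicle arrays for 8 of the 10 named higher genes and 5 of the 10 named lower genes, against 1.66% and 1.28% of all probes. Since the genes were chosen by this contrast, these counts are a description.

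Other probes of the same genes seldom showed the difference. Of the 20 genes named for DHT, 14 had other probes, 33 in all. Of these 33 probes, 1 differed in the same direction at an unadjusted p under 0.05 and 3 in the opposite direction. The named probe was the brightest of its gene in 8 of the 20.

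Estradiol changed no probe at an FDR of 1% in the limma fit, and 3782 probes (8.19%) had an unadjusted p under 0.05. The methods' t-test also called 0 probes at this level, and the fit over all 48 arrays called 1. At 20%, 1 probe passed (0.00217%), which has no gene name. It read 6.88, 7.08, 6.75 and 6.81 with estradiol and 7.17, 7.37, 7.36 and 7.49 with vehicle, a difference of -0.47 (adjusted p = 0.136). The groups did not overlap. The genes with the smallest p had adjusted p-values between 0.214 and 0.316, and none of them passed either threshold.

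On the higher side these were Nek11 (0.44), Dcxr, the reductase of dicarbonyls and L-xylulose (0.40), Pik3ip1, an inhibitor of phosphatidylinositol 3-kinase (0.36), Tsnaxip1 (0.43), Ap2a2, a subunit of the endocytic adaptor AP-2 (0.41), the sialyltransferase St6galnac4 (0.43), the helicase Dhx40 (0.39), Epsti1 (0.39), the poly(A) ribonuclease Parn (0.37) and Plxdc1 (0.40). Pik3ip1 read 12.13, 11.85, 11.88 and 11.99 with estradiol and 11.61, 11.62, 11.56 and 11.61 with vehicle. The estradiol arrays all lay above the vehicle arrays. On the lower side were Ndrg2, a gene of mature astrocytes (-0.46), the DNA repair helicase Ercc6l2 (-0.47), Hook1 (-0.40), Olfr318 (-0.43), the actin-binding Shroom2 (-0.44), the microtubule-associated Map7d1 (-0.44), Dock9 (-0.52), Gpm6b (-0.39), Bckdhb (-0.51) and AU040320 (-0.45). Of these 20 genes, 16 had other probes, 35 in all, of which 1 differed in the same direction at an unadjusted p under 0.05 and 2 in the opposite direction. The brightest AU040320 probe differed by 0.10 and the brightest Shroom2 probe by 0.17. Ndrg2 read 11.55, 11.51, 12.38 and 12.34 with estradiol, 11.73, 11.76, 12.38 and 12.27 with DHT, and 12.07, 12.21, 12.77 and 12.57 with vehicle. Its arrays 1 and 2 were lower than arrays 3 and 4 in each group, and the groups overlapped. The estrogen half-site AGGTCA, searched on both strands, was present in 8 of the 18 windows of these genes (44.4%), against 15.8% of all genes. The palindrome GGTCANNNTGACC was found in 0 of the 18 and in 0.0666% of all genes. The genes were chosen by the estradiol contrast, in which none passed either threshold. A match describes the letters only, and binding of a receptor was not tested.

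With both steroids pooled, 8 arrays against 4, no probe passed 1% in the limma fit, with 4745 (10.3%) at an unadjusted p under 0.05. The smallest adjusted p was 0.0144. The fit over all 48 arrays called 5 probes at 1%, the fit after a shift to a common median 2, and the methods' t-test 0. At 20%, 379 probes passed (0.821%), 186 higher and 193 lower. With the arrays shifted to a common median, the split at 20% was 17 higher and 179 lower, and for DHT alone 11 and 29. Without vehicle array 4, 17 probes passed, and without vehicle array 3, 594. Leaving out any array but DHT arrays 3 and 4 and estradiol array 2 moved this count by over 1.5 times. For DHT alone the count was 17 without vehicle array 1 and 563 without vehicle array 3, and leaving out any array but DHT array 4 moved it by over 1.5 times. For estradiol it was 68 without vehicle array 3. At 1% the pool gave 3 probes without estradiol array 2 and 1 each without DHT array 1 and vehicle array 3.

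Nek11 and Gpm6b had the smallest p in the pooled comparison. Nek11 read 9.57, 9.69, 9.45 and 9.32 with DHT, 9.54, 9.39, 9.46 and 9.44 with estradiol, and 9.31, 9.08, 8.98 and 8.71 with vehicle. All 8 treated arrays were above the vehicle arrays, by 9.32 against 9.31 at the nearest. The differences were 0.49 with DHT, 0.44 with estradiol and 0.46 pooled (limma adjusted p = 0.0144), and the second, dim Nek11 probe differed by 0.15 and 0.11. Gpm6b differed by -0.49 when pooled (0.0144). Dcxr read 11.39, 11.74, 11.49 and 11.63 with DHT, 11.52, 11.64, 11.74 and 11.64 with estradiol, and 11.15, 11.33, 11.22 and 11.25 with vehicle. It was higher on all 8 treated arrays, by 0.36 pooled (adjusted p = 0.0435).

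Further genes with both steroids in the same direction were Plxdc1 (0.39), Epsti1 (0.36), Edem2, a lectin of endoplasmic reticulum-associated degradation (0.38), Tsnaxip1 (0.37), Pik3ip1 (0.32) and Tapbp (0.37), with pooled adjusted p-values of 0.103 to 0.112. On the lower side Bckdhb differed by -0.61 (0.0302), Ndrg2 by -0.41 (0.0427), Hook1 by -0.43 (0.0427), Dock9 by -0.55 (0.0435), Neat1 by -0.46 (0.0477), Shroom2 by -0.43 (0.0879), and Cdk20, Gm5063 and Ttc28 by -0.48, -0.32 and -0.37 (each 0.112). All 8 treated arrays were above the vehicle arrays for 6 of the 10 named higher genes and below them for 5 of the 10 lower ones, against 0.396% and 0.271% of all probes, as a description of genes chosen by this contrast. Of the 20 genes, 15 had other probes, and 2 of these 29 probes differed in the same direction at an unadjusted p under 0.05 and 4 in the opposite direction.

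**Figure D2:**
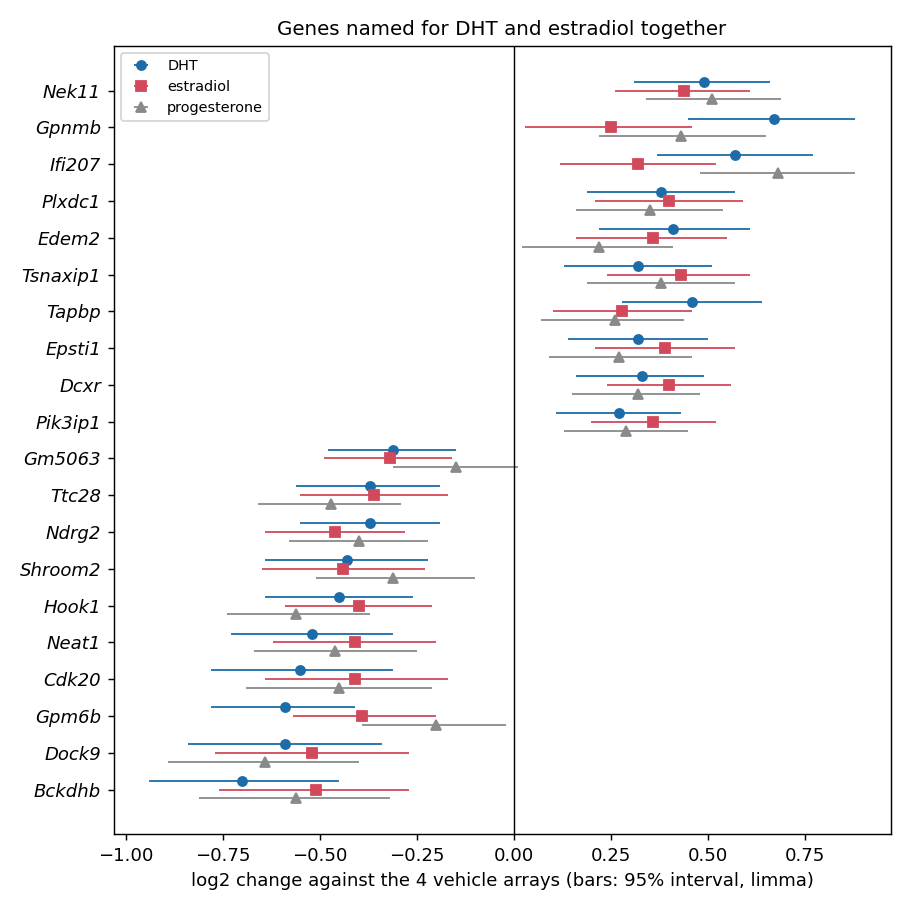
Log2 difference from vehicle with 95% confidence interval for the genes named in the pooled comparison, with DHT, estradiol and progesterone from top to bottom for each gene. Nek11 lies at 0.49 with DHT, 0.44 with estradiol and 0.51 with progesterone, and all 3 contrasts share the vehicle arrays.

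Progesterone gave differences of a like size for these genes against the same 4 vehicle arrays. They were 0.51 for Nek11 (limma adjusted p = 0.0025), 0.68 for Ifi207, 0.43 for Gpnmb, -0.56 for Bckdhb, -0.56 for Hook1, -0.64 for Dock9 and -0.40 for Ndrg2. As these contrasts share their vehicle arrays, the values are given side by side only. Set directly against progesterone, the pool of DHT and estradiol differed by -0.05 for Nek11, -0.24 for Ifi207, 0.02 for Gpnmb, 0.13 for Hook1, 0.09 for Dock9 and -0.01 for Ndrg2, with adjusted p-values of 0.991 or more. For Gpm6b the difference was -0.29 (adjusted p = 0.387).

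The list of 24 interferon response genes was the gene list with the highest median difference under DHT, 0.20 against 0.01 over all genes. At an unadjusted p under 0.05, 10 members were higher with DHT and 0 were lower, where 5.66% of all genes were higher and 4.50% lower. No member passed an FDR of 20%, the smallest adjusted p being 0.219 for Gbp3. With estradiol 1 member was higher, Cxcl10, and 1 was lower, Bst2, against 5.39% and 3.68% of all genes, and the median was 0.05. The 10 members were Isg15, Usp18, Oasl2, Gbp3, Ifit3, Mx2, Rsad2, Cxcl10, Stat2 and Psmb8, and those given by array were chosen after their values were seen.

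In the 5 genes given next, the highest DHT values lay on arrays 1 and 3. Isg15, the ubiquitin-like modifier induced by interferon, read 12.40, 10.63, 11.47 and 10.28 with DHT, 10.82, 10.49, 10.88 and 10.43 with estradiol, and 10.42, 10.60, 10.90 and 10.73 with vehicle. Usp18, the protease that removes Isg15, read 12.39, 10.80, 11.76 and 10.73 with DHT, 11.08, 11.27, 11.14 and 10.89 with estradiol, and 11.06, 10.77, 10.98 and 10.89 with vehicle. In both genes, DHT arrays 2 and 4 lay within or near the range of the vehicle arrays. Oasl2, of the oligoadenylate synthetase family, read 12.36, 10.77, 11.98 and 10.97 with DHT, 11.03, 11.18, 11.30 and 11.07 with estradiol, and 10.89, 10.90, 11.14 and 11.17 with vehicle. Gbp3, a guanylate-binding GTPase, read 12.39, 11.57, 11.92 and 11.03 with DHT, 11.45, 11.73, 11.40 and 11.51 with estradiol, and 11.42, 11.25, 11.44 and 11.05 with vehicle. Ifit3, an antiviral tetratricopeptide protein, read 14.00, 12.62, 12.96 and 12.25 with DHT, 12.78, 12.85, 12.84 and 12.56 with estradiol, and 12.53, 12.55, 12.60 and 12.40 with vehicle. In these 3 genes DHT array 1 was the highest of the DHT arrays and array 3 the next.

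The differences with DHT were 0.53 for Isg15, 0.49 for Usp18 and Oasl2, 0.44 for Gbp3 and Ifit3, 0.42 for Mx2 and 0.37 for Rsad2. The mean of the 24 members was 10.27, 9.62, 9.96 and 9.54 with DHT, 9.67, 9.70, 9.67 and 9.66 with estradiol, and 9.67, 9.64, 9.68 and 9.58 with vehicle. DHT arrays 2 and 4 did not exceed the highest vehicle array. For 0 of the 24 members were all DHT arrays above all vehicle arrays, where 1.71% of all genes showed this. Without DHT array 1 the count of higher members was 3, and without DHT array 2 it was 14, the extremes over leaving out each array. Without vehicle array 1 it was 6. It was 6 without the replicate block and 0 by the methods' t-test.

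**Figure D3:**
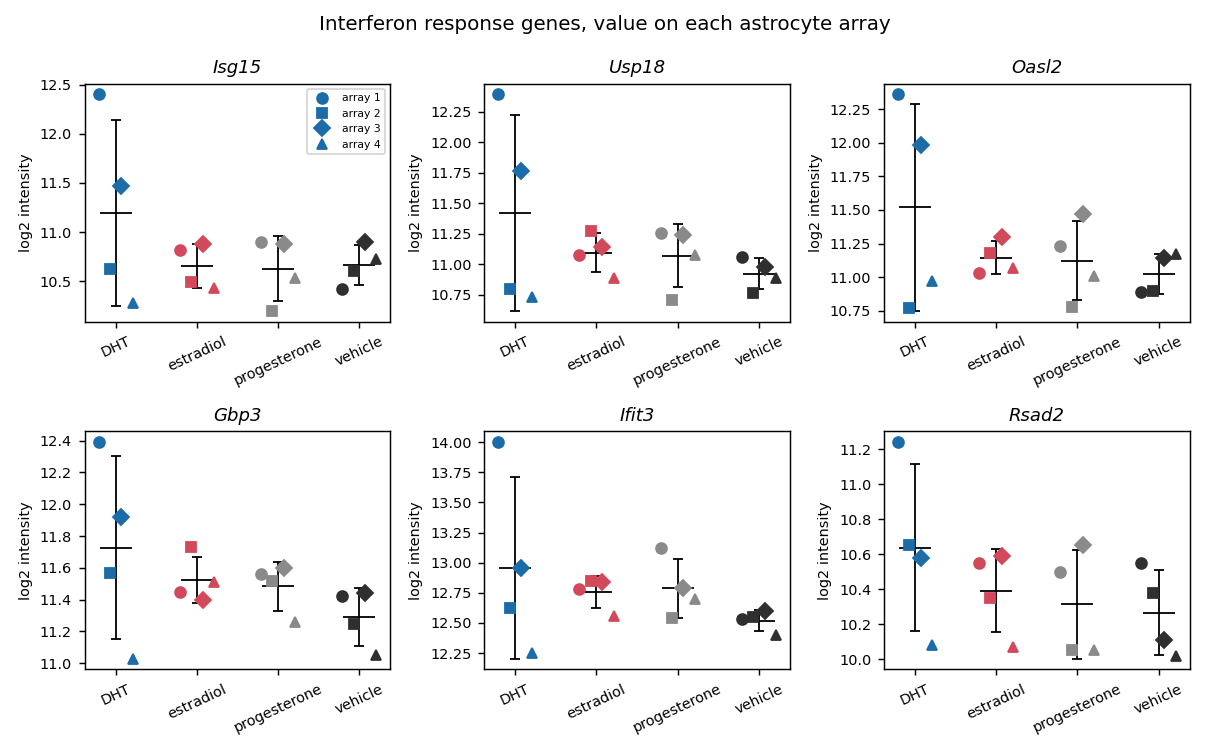
Normalized log2 intensity of interferon response genes on each array, with DHT, estradiol, progesterone and vehicle from left to right, array number by marker shape, and mean ± SD as bars (n = 4 each). Over all members of the list, the mean was 10.27 and 9.96 on DHT arrays 1 and 3, and 9.62 and 9.54 on DHT arrays 2 and 4.

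The windows before 3 members are shown because of the core of the interferon-stimulated response element, GAAANNGAAA, in capitals here with any overlapping match joined and in either orientation. Gbp3 (chr3:142559794-142560043, plus strand) held 2 matches starting 45 and 39 bases before the start, Isg15 (chr4:156200819-156201068, minus strand) 3 at 78, 72 and 66, and Rsad2 (chr12:26456453-26456702, minus strand) 1 at 120.
Gbp3: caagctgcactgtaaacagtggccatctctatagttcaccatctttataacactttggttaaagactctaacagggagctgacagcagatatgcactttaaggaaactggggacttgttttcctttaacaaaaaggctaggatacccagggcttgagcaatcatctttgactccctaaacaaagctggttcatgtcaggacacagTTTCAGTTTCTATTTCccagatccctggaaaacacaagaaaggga
Isg15: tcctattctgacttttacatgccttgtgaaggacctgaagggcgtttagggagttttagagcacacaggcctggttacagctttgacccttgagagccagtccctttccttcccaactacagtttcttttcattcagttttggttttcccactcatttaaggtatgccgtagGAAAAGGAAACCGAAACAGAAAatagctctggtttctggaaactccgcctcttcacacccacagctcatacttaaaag
Rsad2: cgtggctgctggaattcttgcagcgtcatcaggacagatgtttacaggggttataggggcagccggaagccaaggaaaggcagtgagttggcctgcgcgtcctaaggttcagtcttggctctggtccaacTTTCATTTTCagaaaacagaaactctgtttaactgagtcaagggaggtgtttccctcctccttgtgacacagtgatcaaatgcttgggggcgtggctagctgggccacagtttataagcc
The sequences are from RefSeq on GRCm38.p6 and run along the strand of the gene. Of the 24 members, 20 had a window and 10 of these held the core (50%), against 3.46% of all genes. This share covers all members, whatever their change with DHT. It describes a list made of known interferon response genes and is no result about DHT.

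Other inflammatory genes were tested as a list of 24 cytokines and chemokines. With DHT, 8 were higher at an unadjusted p under 0.05, where 5.66% of all genes were higher, among them Osm (0.28), a cytokine of the interleukin-6 family, the neutrophil chemoattractant Cxcl1 (0.50) and Cxcl10 (0.34). Csf1 was lower (-0.30), the only member so, where 4.50% of all genes were lower. None passed an FDR of 20%, with 0.223 the smallest adjusted p, and the list median was 0.05. With estradiol 2 were higher and 0 lower, against 5.39% and 3.68% of all genes, and the median was 0.02. The chemokine Cxcl1 read 8.35, 7.99, 8.73 and 8.17 with DHT and 7.93, 8.12, 7.66 and 7.51 with vehicle, and the groups overlapped.

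Markers of microglia were read beside Gpnmb and Adgre1, since both genes belong to phagocytes. Of 15 microglia markers, 2 were higher and 1 lower with DHT at an unadjusted p under 0.05, against 5.66% and 4.50% of all genes, and the list median was 0.03. The complement gene C1qb read 14.50, 14.50, 14.34 and 14.45 with DHT, 14.58, 14.62, 14.27 and 13.97 with estradiol, and 14.00, 14.09, 14.08 and 13.94 with vehicle, a difference of 0.42 with DHT (limma adjusted p = 0.156). Cd68, of phagocyte lysosomes, differed by 0.29 with DHT and 0.34 with estradiol, and its 8 treated arrays lay above the vehicle arrays. Cx3cr1, the microglial fractalkine receptor, differed by -0.23 with DHT. Their mean level spanned 11.79 to 11.94 with DHT and 11.78 to 11.88 with vehicle, and its part in the Gpnmb result was not tested. Of 15 astrocyte markers, 2 were higher and 3 lower with DHT at an unadjusted p under 0.05, against the same shares of all genes, and the list median was -0.05. They ran from -0.60 for Slc4a4 to 0.34 for the growth factor receptor Fgfr3 (limma adjusted p = 0.228). With estradiol 0 were higher and 2 lower, against 5.39% and 3.68% of all genes, with a median of -0.02. The bicarbonate transporter Slc4a4 read 9.59, 8.95, 9.48 and 8.91 with DHT, 9.95, 9.54, 9.61 and 9.50 with estradiol, and 9.44, 10.07, 9.88 and 9.95 with vehicle, a difference of -0.60 with DHT (adjusted p = 0.145). Its groups overlapped through vehicle array 1. Gfap, the astrocyte filament, differed by -0.01 with either steroid.

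The nuclear receptors for these ligands read close to the floor. Esr1, encoding estrogen receptor alpha, lay between 7.02 and 7.26 with DHT, 7.06 and 7.20 with estradiol, and 6.88 and 7.21 with vehicle. Esr2, encoding estrogen receptor beta, read 7.33, 7.20, 7.09 and 7.16 with DHT, 7.01, 7.16, 7.18 and 6.94 with estradiol, and 7.08, 6.72, 6.92 and 6.90 with vehicle. Its DHT arrays lay just above the vehicle arrays, by 0.29 (95% confidence interval 0.10 to 0.48, limma adjusted p = 0.267), and its other probes differed by -0.05 and 0.23. Gper1, the membrane estrogen receptor, lay between 8.20 and 8.81 with DHT, 8.23 and 8.58 with estradiol, and 8.02 and 8.47 with vehicle. Pgr, Nr3c1 and Nr3c2, the receptors for progesterone, glucocorticoids and mineralocorticoids, lay between 6.63 and 7.30 on these 12 arrays for the probes read here. Levels of different probes are not comparable with each other.

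Genes known to respond to steroid receptors were read with their intervals. Fkbp5, a receptor co-chaperone, differed by 0.06 with DHT (-0.14 to 0.25) and by 0.10 with estradiol (-0.09 to 0.29), and the clock gene Per1 by -0.03 (-0.23 to 0.17) and 0.01 (-0.19 to 0.21). Tsc22d3, the leucine zipper induced by glucocorticoids, differed by 0.07 (-0.15 to 0.30) and 0.04 (-0.18 to 0.27), and the kinase Sgk1 by 0.14 (-0.08 to 0.36) and -0.02 (-0.23 to 0.20). Greb1, an estrogen-induced gene of breast cells, differed by 0.14 (-0.06 to 0.33) and 0.09 (-0.10 to 0.29), and cyclin D1 (Ccnd1) by 0.02 (-0.19 to 0.22) and -0.15 (-0.35 to 0.05). The ranges in parentheses are 95% confidence intervals. Over the 14287 probes with a mean of 8 or more, the median interval reached 0.197 log2 units to either side for each steroid. For the pool it reached 0.171, and changes under about that size were not detectable with these arrays. These intervals are not adjusted for the number of probes, and the changes that were called were larger. The smallest at an FDR of 20% was 0.28 with DHT, 0.47 with estradiol and 0.24 pooled, and at 1% 0.59 with DHT.

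**Figure D4:**
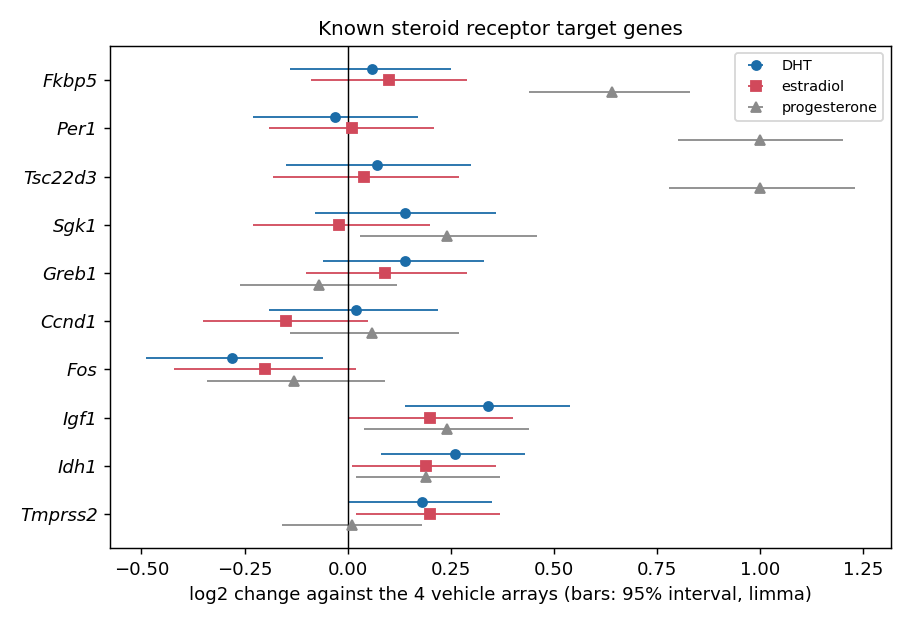
Log2 difference from vehicle with 95% confidence interval for 10 known steroid receptor target genes, with DHT, estradiol and progesterone from top to bottom for each gene. Per1 lies at -0.03 with DHT and 0.01 with estradiol against 1.00 with progesterone, with shared vehicle arrays.

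Of the 27 measured androgen-responsive genes, known mostly from prostate, 4 were higher and 0 lower with DHT at an unadjusted p under 0.05, against 5.66% and 4.50% of all genes, none past an FDR of 20%, and the list median was 0.04. Igf1, the growth factor, read 12.46, 12.44, 12.49 and 12.25 with DHT, 12.33, 11.99, 12.38 and 12.39 with estradiol, and 12.07, 12.06, 12.32 and 11.84 with vehicle, a difference of 0.34 with DHT (limma adjusted p = 0.219). Its groups overlapped. The others were Idh1 (0.26), the cytosolic isocitrate dehydrogenase, the synaptic scaffold Homer2 (0.19) and the protease Tmprss2 (0.18). With estradiol 3 of the 27 were higher and 1 lower, against 5.39% and 3.68% of all genes, and the median was 0.06. Of the 27 estrogen-responsive genes, 0 were higher or lower with estradiol at an unadjusted p under 0.05, against 5.39% and 3.68% of all genes. The median was -0.01 against 0.012 over all genes. The cytokine Lif had the smallest p of these 27 genes (-0.20). With DHT, Cxcl12 (0.27) and Igfbp4 (0.20) were higher and Fos (-0.28) and Nrip1 (-0.20) lower at that level. These 2 of 27 members in each direction were near the 5.66% and 4.50% of all genes.

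Across all 18 gene lists, 407 genes were measured. In the limma fit 0 of them passed 1% with DHT, with estradiol or pooled. At an unadjusted p under 0.05, 46 were higher and 22 lower with DHT, where 5.66% and 4.50% of all genes were. With estradiol 22 were higher and 15 lower, close to the 5.39% and 3.68% of all genes. At 20%, 4 passed with DHT, 0 with estradiol and 7 pooled, where 0.513%, 0.00217% and 0.821% of all probes passed. Those with DHT were Nsdhl, a sterol synthesis enzyme (0.37), higher, and Tns1, a focal adhesion tensin (-0.39), Tgfb2, a transforming growth factor (-0.44), and Sdhd, a subunit of succinate dehydrogenase (-0.56), lower. Pooled, they were Srd5a3, a steroid reductase family member (0.28), cyclin D3 (Ccnd3, 0.25), the stress transcription factor Ddit3 (0.28) and the growth factor Fgf1 (0.29), higher, and the small heat shock protein Hspb1 (-0.40), Tgfb2 (-0.36) and Igfbp3 (-0.35), lower. A second Igfbp3 probe differed by 0.08 pooled (limma adjusted p = 0.839). Srd5a3 read 11.94, 12.06, 12.03 and 11.91 with DHT, 12.09, 11.84, 12.05 and 12.11 with estradiol, and 11.63, 11.77, 11.77 and 11.71 with vehicle, a difference of 0.28. Hspb1 read 9.43, 9.33, 9.63 and 9.52 with DHT, 9.37, 9.29, 9.60 and 9.59 with estradiol, and 9.73, 10.13, 9.76 and 9.84 with vehicle. In both genes the treated and vehicle arrays did not overlap. Without vehicle array 3 the pooled count was 13 and the DHT count 14, and without vehicle array 4 both were 0.

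DHT was then set against estradiol at the same dose and time, a comparison that uses no vehicle array. It was made for all 46174 probes as 1 pair of compounds. No probe passed 1% or 20% in the limma fit, with 2179 (4.72%) at an unadjusted p under 0.05 and a smallest adjusted p of 0.905. By the methods' t-test and by the fit over all 48 arrays the counts at 1% were also 0, and the fit over all 48 arrays gave 2 at 20%. The 5 genes with the smallest p on the side of DHT were Asah1, the acid ceramidase (0.58), Ppp1r1b, encoding DARPP-32 (0.38), Thbs1, an astrocyte-secreted thrombospondin (0.44), AU040320 (0.46) and Nsdhl (0.40 on its second probe). On the side of estradiol were the mRNA cleavage factor Cpsf3 (-0.46), the RNA-binding protein Celf2 (-0.37), Sec14l1 (-0.40), the mitochondrial NAD kinase Nadk2 (-0.35) and Kank4 (-0.45). Asah1 read 9.16, 9.32, 9.35 and 9.82 with DHT and 8.79, 8.39, 8.97 and 9.17 with estradiol. The groups overlapped by 9.16 against 9.17, and its brightest probe differed by 0.03. Ppp1r1b read 7.49, 7.46, 7.63 and 7.55 with DHT and 7.18, 7.09, 7.17 and 7.18 with estradiol, without overlap, on a dim probe whose brighter partner differed by -0.10.

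The intervals of the differences between DHT and estradiol were -0.24 to 0.15 for Fkbp5, -0.24 to 0.16 for Per1, -0.06 to 0.37 for Sgk1 and -0.15 to 0.24 for Greb1. For Gpnmb it was 0.21 to 0.63 around 0.42 (unadjusted p = 0.000356 in limma, adjusted p = 0.905), so the rise with DHT was not shown to differ from the response to estradiol. A p that misses the threshold does not show that both compounds act alike.

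Against progesterone, the pool of DHT and estradiol was lower for 21 probes at an FDR of 1% (0.0455%), which belong to 17 genes, and higher for 0 of the probes in the limma fit. At 20% there were 8 higher (0.0173%) and 50 lower (0.108%), and at an unadjusted p under 0.05 2051 probes (4.44%). Per1 read 10.23, 9.89, 10.15 and 10.06 with DHT, 10.23, 10.06, 10.07 and 10.12 with estradiol, and 10.81, 11.25, 11.29 and 11.08 with progesterone. The groups were far apart, by -1.01 (adjusted p = 1.09e-08), and the arrays with DHT or estradiol lay within the vehicle range of 9.93 to 10.28, except DHT array 2. Tsc22d3 read 11.92, 11.99, 12.19 and 12.11 with DHT, between 11.90 and 12.11 with estradiol, and 12.87, 12.75, 13.03 and 13.28 with progesterone, a difference of -0.95 (1.67e-07).

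The other 15 were Mapk4 (-0.80), an atypical MAP kinase, Pdk4 (-0.75), which restrains pyruvate dehydrogenase, Zfp469 (-0.71), Folh1 (-0.78), the glutamate carboxypeptidase of astrocytes, the acyl-CoA synthetase Acsl3 (-0.66), Mical2 (-0.66), Fkbp5 (-0.56, adjusted p = 0.000416 in limma), the lipin Lpin3 (-0.61), the methyl-CpG binding protein Mbd1 (-0.55), the branched-chain aminotransferase Bcat1 (-0.60), Igfbp3 (-0.60 on its dimmer probe), Klf7 (-0.47), the sulfotransferase Sult1a1 (-0.59), Fam107a (-0.55) and Zhx3 (-0.52). The brightest Igfbp3 probe differed by -0.46 (adjusted p = 0.0755) and missed 1%. The values of Klf7 and Mbd1 were also from dimmer probes, and their brightest probes differed by -0.39 and -0.45, both past 1%. On the dimmer Klf7 probe progesterone differed from vehicle by 0.18 and the pool by -0.29. In the fit over all 48 arrays 16 of the 21 probes were called again, and Pdk4 was not, with an adjusted p of 0.665 against 1.67e-07 in the fit of the astrocyte arrays. Of the 30 glucocorticoid receptor targets on the list, 6 were lower than with progesterone at 1% and 0 higher, with a median of -0.18 against -0.005 over all genes. The list was chosen with earlier results of these data known and holds genes called here, such as Pdk4 and Fam107a. The count is therefore a description. The genes with the smallest p on the higher side missed 1% in the fit of the 24 astrocyte arrays. They were Maml2, a Notch coactivator (0.51, adjusted p = 0.0142), Cxcl10 (0.61, 0.0157), Tnfaip2 (0.44, 0.0234), the hyaluronan-degrading Cemip (0.46) and Mrgprh (0.38). The brighter Maml2 probe differed by 0.09, and the brighter Tnfaip2 probes by 0.29 and 0.26 (limma adjusted p = 0.997 for each). The dimmer probes of Cxcl10 and Cemip differed by 0.32 and 0.11. Cxcl10 read 10.94, 10.93, 10.73 and 11.13 with DHT, 11.01, 10.86, 10.74 and 10.87 with estradiol, and 10.20, 10.26, 10.20 and 10.52 with progesterone, and the groups did not overlap. Tnfaip2, a gene induced by tumor necrosis factor, read 8.21, 7.91, 7.94 and 7.91 with DHT, 8.21, 8.30, 8.23 and 8.12 with estradiol, and 7.62, 7.66, 7.62 and 7.76 with progesterone, also without overlap. With all 48 arrays 4 higher probes passed 1%, after the shift to a common median 2, and with only the 12 arrays compared or after quantile normalization 1. Cxcl10 passed in each of these 4 fits, and its adjusted p ran from 0.00025 to 0.238 over all alternatives. Maml2 passed with 48 arrays and after the shift, and Tnfaip2 and Cemip with 48 arrays. Without the replicate block 10 probes passed 1%, and the methods' t-test called 0. Without progesterone array 2 the count was 12, and without progesterone array 1 it was 13.

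Markers of the oligodendrocyte lineage were read in the same comparison. Cldn11, a tight junction gene of oligodendrocytes, read 9.65, 9.42, 9.52 and 10.03 with DHT, 10.01, 9.02, 10.07 and 9.20 with estradiol, and 11.04, 9.87, 11.06 and 11.26 with progesterone, a difference of -1.19 (limma adjusted p = 0.0142). The groups overlapped through progesterone array 2. Sox10, a transcription factor of this lineage, differed by -0.69 (adjusted p = 0.154). Of 8 precursor markers, 7 were negative, and 3 were lower and 0 higher at an unadjusted p under 0.05, where 4.44% of all probes differed in either direction. Of 10 oligodendrocyte markers, 1 was lower and 0 higher at that level. The mean level of the precursor markers spanned 9.13 to 9.54 with DHT, 9.38 to 9.66 with estradiol and 9.47 to 9.92 with progesterone, and that of the oligodendrocyte markers 8.13 to 8.22, 8.11 to 8.31 and 8.13 to 8.45. Of the oligodendrocyte markers, 5 lay under 7.5 on all 24 arrays. Their part in the genes called against progesterone was not tested.

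**Figure D5:**
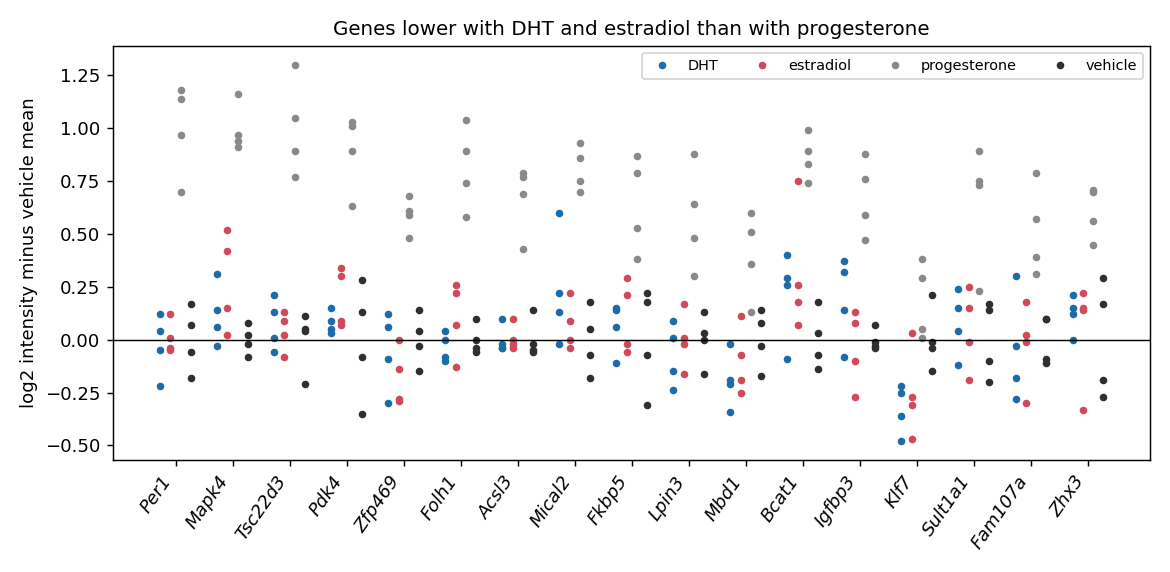
Log2 intensity on each array minus the vehicle mean of the gene, for genes that separated DHT and estradiol from progesterone. DHT, estradiol, progesterone and vehicle run from left to right (n = 4 each). As normalized log2 intensity before this subtraction, Per1 read at most 10.23 on the 8 arrays with DHT or estradiol. It read at most 10.28 on the vehicle arrays and at least 10.81 on the progesterone arrays.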

How the data were processed

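The values analysed were the normalized log2 intensities that the authors deposited, given to 2 decimals for 46174 probes on 48 arrays. Per the study's methods, the authors checked the beads in R, subtracted background, applied quantile normalization and took log2. Of the probes, 35725 had 1 gene symbol in the platform annotation and 10449 had none. A deposited table of non-normalized signal intensities was used only to check array identity: 1 of its 48 columns was closest in value to the array of its own label, so it entered no test.

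The 24 astrocyte arrays were fitted with limma 3.58.1 in R 4.3.3 (lmFit, eBayes) with 6 groups and the replicate number as a fixed block, and p-values were adjusted by Benjamini-Hochberg over all probes of a comparison, with calls at FDR 1% and a less strict 20%. Contrasts were DHT, estradiol and their mean against vehicle, DHT against estradiol, and the mean of both against progesterone. Same-numbered arrays of different groups deviated together in 60 of 60 pairs (correlation 0.115 to 0.325), against a median of -0.147 for differently numbered arrays, and the numbers were taken to pair the arrays. The script was tested on simulated data. Arrays have no read depth, and their number limits the precision.

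Named genes were, for each contrast with vehicle, those past 1% and then the smallest p up to 10 in each direction, for the other contrasts the 5 smallest p in each direction, and list members with the smallest p. A listed gene was represented by its brightest probe. The members and lists were chosen with earlier results of these data known. Alternatives were no block, other sets of arrays, another normalization or shift, a filter on dim probes, another variance model, the mean of all probes of a gene, the methods' t-test and leaving out each array. Promoter windows came from RefSeq (GRCm38.p6). Figures were drawn with matplotlib 3.10.9.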

Additional observations from a re-analysis of the deposited data

Results flagged for a closer look

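In 301 groups of 4 arrays, over 97 genes of the text, Dixon's test at the 95% level set 1 array apart in 22 groups, where chance gives about 1 in 20 groups. With DHT these were array 1 of Tor3a (9.14) and Tnfaip2 (8.21), array 2 of Hook1 (6.79), St6galnac4 (8.54) and Ttc28 (11.53), and array 3 of Pik3ip1 (11.81). With estradiol they were array 1 of Bckdhb (7.57) and array 2 of Cdk20 (7.96), Fgf1 (10.91), Igf1 (11.99), Pgr (6.63) and Ppp1r1b (7.09). With vehicle they were array 1 of Ifi207 (9.81), Lif (6.71), Map7d1 (10.89) and Tsnaxip1 (10.99), array 3 of Drd2 (7.69) and Pik3ip1 (11.56), and array 4 of Dhx40 (6.68), Mrgprh (6.65), Plxdc1 (8.54) and Tapbp (9.26).

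The difference of Nek11 between the pooled steroids and vehicle was not the same in astrocytes and neurons, by 0.65 log2 units (interaction in limma, adjusted p = 0.00153). It was not particular to DHT and estradiol. In astrocytes Nek11 also read 9.39 to 9.57 with aldosterone, 9.26 to 9.56 with dexamethasone and 9.36 to 9.74 with progesterone, against 8.71 to 9.31 with vehicle. In neurons Nek11 read 6.72, 6.71, 6.99 and 6.85 with DHT, 6.81, 6.65, 6.94 and 6.89 with estradiol, and 7.06, 6.85, 6.95 and 7.17 with vehicle, near the floor in all groups. The interaction was 0.68 for DHT (adjusted p = 0.0153) and 0.62 for estradiol (0.0846). Without neuron vehicle array 3 and neuron dexamethasone array 3 it was 0.70 pooled (0.000975).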

How the results depend on the processing

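The count of DHT probes at 1%, 2, was 0 with no replicate block, with only the 12 arrays compared, after a second quantile normalization, with probes of mean 7.5 or more, and by the methods' t-test, 1 with an intensity trend and robust prior, and 6 with all 48 arrays. At 20%, 237 probes became 2 with no replicate block, 1144 with 48 arrays, 122 with 12 arrays, 482 after quantile normalization, 40 after a shift to a common median, 453 with the dim filter and 0 by the methods' t-test. For estradiol, 0 at 1% became 1 with 48 arrays, and 1 at 20% became 0 with no replicate block, 226 with 48 arrays, 0 with 12 arrays, 3 after quantile normalization, 3 with the dim filter, 2 with the trend and 0 by the methods' t-test. For the pool, 0 at 1% became 5 with 48 arrays and 2 after the shift, and 379 at 20% became 5 with no replicate block, 1374 with 48 arrays, 165 with 12 arrays, 586 after quantile normalization, 196 after the shift and 5 by the methods' t-test. DHT against estradiol gave 2 at 20% with 48 arrays. The pool against progesterone gave 10 at 1% and 28 at 20% with no replicate block, 99 at 20% with 48 arrays, and 0 and 11 by the methods' t-test.

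Leaving out each array gave 0 to 2 (1%) and 17 to 563 (20%) for DHT, 0 to 0 and 0 to 68 for estradiol, 0 to 3 and 17 to 594 for the pool, 0 to 0 and 0 to 1 for DHT against estradiol, and 12 to 22 and 38 to 72 for the pool against progesterone. The highest counts against vehicle at 20% came without vehicle array 3. List members past 20%, 4 with DHT and 7 pooled, were 0 and 0 with no replicate block and 1 and 3 after the shift. With estradiol the count was 1 with the mean of all probes of a gene. Leaving out a vehicle array gave 0 to 14, 0 to 2 and 0 to 13. The interferon members higher with DHT were 3 to 14, with estradiol 0 to 4 and pooled 2 to 9. The alternatives for the interferon list and for the neuron arrays were chosen after seeing the data. The cause of these changes was not tested.

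Gpnmb had adjusted p-values of 0.00382 to 0.649 and Gpm6b of 0.00116 to 0.562 over the alternatives, and no difference of a named gene reversed under the alternatives run. The shift to a common median moved the median over all genes by -0.037 with DHT, -0.05 with estradiol and -0.044 pooled. With 4 arrays a group, small changes of dim probes were not detectable.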

Other observations

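Igf2, a growth factor of fibroblasts and meningeal cells, varied between arrays of the same group, and was chosen after its values were seen. It read 10.38, 10.70, 10.09 and 12.96 with DHT, 9.74, 9.64, 10.21 and 10.68 with estradiol, and 9.04, 8.91, 11.93 and 9.93 with vehicle. The difference of 1.08 with DHT had a 95% interval of -0.04 to 2.20. On the same arrays decorin (Dcn), of the extracellular matrix, read 9.66, 10.20, 10.18 and 10.99 with DHT, 9.21, 9.24, 9.81 and 9.11 with estradiol, and 8.33, 8.78, 10.37 and 9.91 with vehicle. DHT array 4 and vehicle array 3 were the highest of their groups for both genes. Other matrix genes followed this only in part. Lum, Col1a2 and Col3a1 were highest on DHT array 4 within its group. On vehicle array 3 Lum read 6.85 and Col1a2 7.33, below the highest vehicle arrays at 7.23 and 7.48. Col3a1 read 7.59 there, against 7.57 on vehicle array 4. The part of such cells in the results was not tested.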
